A study of Mus musculus with 6 samples.

Results

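Replication-dependent histone genes were chosen by their names from the deposited gene table, taking the numbered genes of the H1, H2A, H2B, H3 and H4 families by symbol alone. The rule selected 62 of 22377 genes, of which 5 encode linker histone H1, 15 encode H2A, 17 encode H2B, 12 encode H3 and 13 encode H4. Of these, 50 lie in the large cluster on chromosome 13, 10 in the cluster on chromosome 3, 1 on chromosome 11 and 1, H4c16, outside these clusters on chromosome 6. After edgeR's filter on low counts 33 were tested and 29 were not.

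The data comprise 6 RNA sequencing libraries of mouse tumors. Of these, 3 samples carry the titles wt1 to wt3 and the treatment wt, and the other 3 carry the titles ko1 to ko3 and the treatment knockdown. The labels give no genotype, age or sex. The methods of the study describe Npm1+/+ and Npm1+/- mice, young and of both sexes, bearing subcutaneous tumors of Lewis lung carcinoma (LLC) cells, from which CD45+ CD11b+ F4/80+ macrophages were sorted. An Npm1+/- mouse is heterozygous and keeps 1 allele, and it is not stated to carry the change in macrophages alone. The methods name a SMARTer low input kit, a kind that primes cDNA with oligo-dT, although the priming is not stated, whereas the labels give whole tumor tissue and a small RNA protocol, and these accounts were not reconciled. Each label names a separate biosample, whereas a legend in the study gives fewer mice per group than there are libraries, and the p-values below measure the spread between these libraries.

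Npm1, the targeted gene, goes against the ko label. Its level was 142, 380.2 and 381 CPM (read counts after scaling of the libraries to 1 size) in wt1 to wt3 and 441, 499 and 343 CPM in ko1 to ko3. The groups are therefore called the libraries labelled wt and labelled ko, and every direction below is that of the labels. Total counts lay between 36550775 and 38147320 per library, and wt1 stood apart, at -108 on the first principal component (67.99% of the variance) against -4.54 to 52.0 for the other libraries. Each count of 0 allows up to 3 counts, or 0.0716 to 0.0846 CPM, for counting error only. Markers of macrophages summed to between 13326 and 27458 CPM in each library, so macrophage RNA was present in every library. This does not settle whether sorted cells or whole tumors were used. In bulk RNA, fewer cells of a type and less RNA per cell cannot be told apart.

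Core histones form the protein spool on which DNA is wound, and H1 binds the DNA that links the spools. Most histone mRNA is made in S phase, when new DNA needs new histones, from intronless genes in clusters that Npat activates. These mRNAs end in a short stem-loop, which the protein Slbp binds, in place of a poly(A) tail. Some of the genes, among them H1f2, H2bc4 and H2bc21, are also known to give polyadenylated mRNA in cells that do not divide. Oligo-dT priming captures polyadenylated RNA, so libraries made in that way hold a part of the histone mRNA only.

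The stem-loop was looked for in the annotated transcripts (GENCODE vM21, GRCm38) as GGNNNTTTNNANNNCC on the transcript strand, with at least 5 of the stem's base pairs formed. It was found for 42 members and not for 20. In 10 of these 20 the longest annotated transcript is about as short as a core histone coding sequence and may end before a stem-loop, so no match does not show that a gene lacks one. The stem-loops of the members with the highest levels are shown 5′ to 3′, with the bases of the stem in capitals and H4c14 added as the other member with the form of H4c9.
H1f2: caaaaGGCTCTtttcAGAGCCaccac
H1f4: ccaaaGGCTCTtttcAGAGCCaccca
H1f3: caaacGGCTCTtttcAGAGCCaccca
H2bc8: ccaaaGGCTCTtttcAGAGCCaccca
H2ac18: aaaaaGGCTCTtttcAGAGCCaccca
H4c9: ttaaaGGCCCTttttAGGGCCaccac
H4c14: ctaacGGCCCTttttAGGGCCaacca

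The stem and loop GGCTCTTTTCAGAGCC was the most frequent, in 25 members, and linker and core histone genes shared it. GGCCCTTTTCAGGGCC stood in 7 members, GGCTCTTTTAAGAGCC in 5, and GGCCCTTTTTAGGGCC, the form of H4c9, in 2. H2bc4 and H2bc21, the most abundant H2B genes by count, had no match in their annotated coding transcripts.

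Levels are compared between genes in FPKM, which is corrected for gene length. H1f2 (NCBI Gene 50708, chr13:23738807-23739531, plus strand), a linker histone, was the most abundant member with a mean of 219 FPKM over 6 libraries, rank 334 of all genes. H2bc4 (NCBI Gene 68024, chr13:23684199-23692480, plus strand), an H2B gene, followed with 45.5 FPKM at rank 1366. H4c9, an H4 gene (chr13:22040960-22041362, minus strand), had 11.1 FPKM. The next were H2bc8 with 5.33, H1f4 with 4.46, H1f3 with 4.02, H2bc21 with 2.26 and H2ac18 with 2.02 FPKM. The mean was under 1 FPKM in 43 members, and between 3 and 10 members had no count in a given library.

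H1f2 alone held 61.8% to 72.6% of all counts of the 62 genes in each library. With H2bc4, H2bc21 and H4c9 it held 84.4% to 90.4%. Within the classes, H1f2 made up 94.7% to 96.8% of the summed FPKM of H1, H2bc4 73.3% to 78.6% of that of H2B, and H4c9 39.8% to 58.9% of that of H4. No H3 gene reached this standing, the highest being H3c1 with 1.42 FPKM. The highest H2A gene, H2ac18, was close to the next, H2ac19, at 1.74 FPKM, and since all 50-base words of both transcripts occur in another gene's transcript, the division of reads between them is uncertain. Over all members, 33 shared more than 50% of their 50-base words with another gene, so levels of the less abundant members depend on how shared reads were counted.

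**Figure D1:**
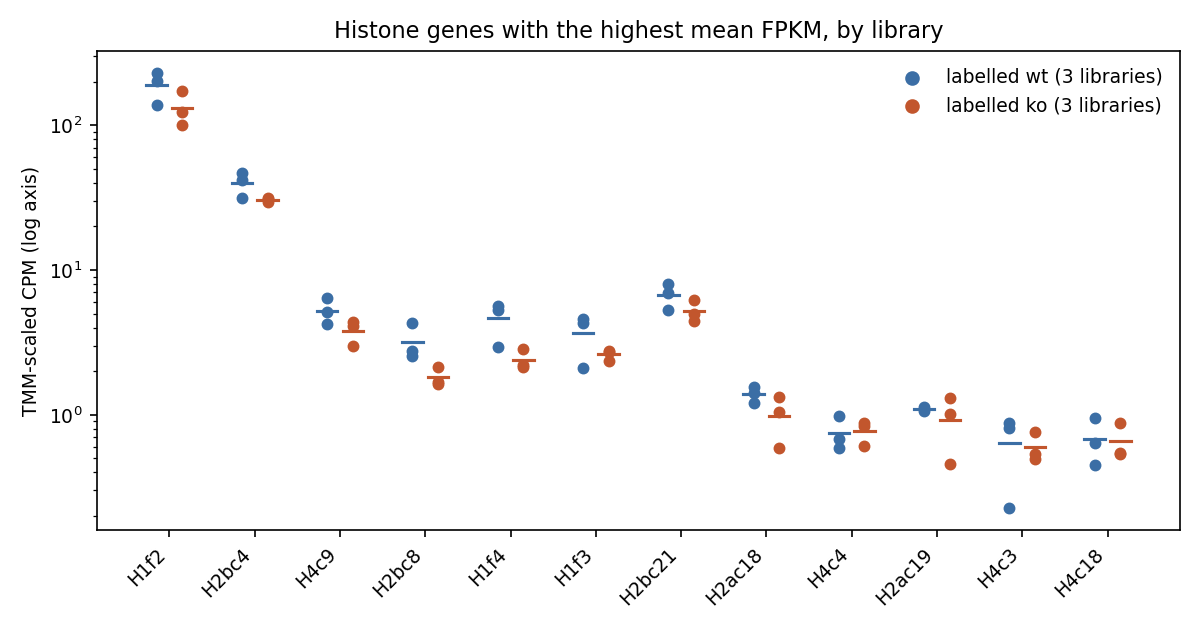
TMM-scaled CPM (log axis) in each library for the 12 histone genes with the highest mean FPKM, with libraries labelled wt in blue, those labelled ko in red and the group means as bars. H1f2 lies between 100 and 231 CPM and H2bc4 between 29.3 and 46.6, far above the other genes, and only H2bc8 and H1f4 show groups that do not overlap.

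The level varied with the annotated 3′ end. Where several annotated transcripts held the stem-loop, the one that ran furthest past it was used. In 20 members it ran more than 100 bases past the loop, and their median was 1.09 FPKM, with 5 members over 2 FPKM. In 22 members it ended within 100 bases of the loop, with a median of 0.396 and a highest value of 2.02 FPKM. In the 20 members without a match the median was 0.303 FPKM, although H2bc4 and H2bc21 are among them. The transcript of H1f2 ran 840 bases past the loop and held AATAAA, the usual polyadenylation signal, in its last 60 bases. Those of H4c9 and H2bc8 ran 330 and 155 bases past the loop and did not hold AATAAA there. Of the 8 members above 2 FPKM, only H1f2 and H2bc21 held it. Less abundant members also held it, among them H3c14 at 0.147 and H4c14 at 0.518 FPKM. The median share of 50-base words held in common with other genes was 23.3%, 63.1% and 84.3% in the same order, and its part in the order of levels was not tested. The interval that was counted may not include the bases past the loop, since the length implied by the FPKM values equals the RefSeq gene in 50 members. For H1f2 this length was 725 bases against 1560 for the transcript.

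**Figure D2:**
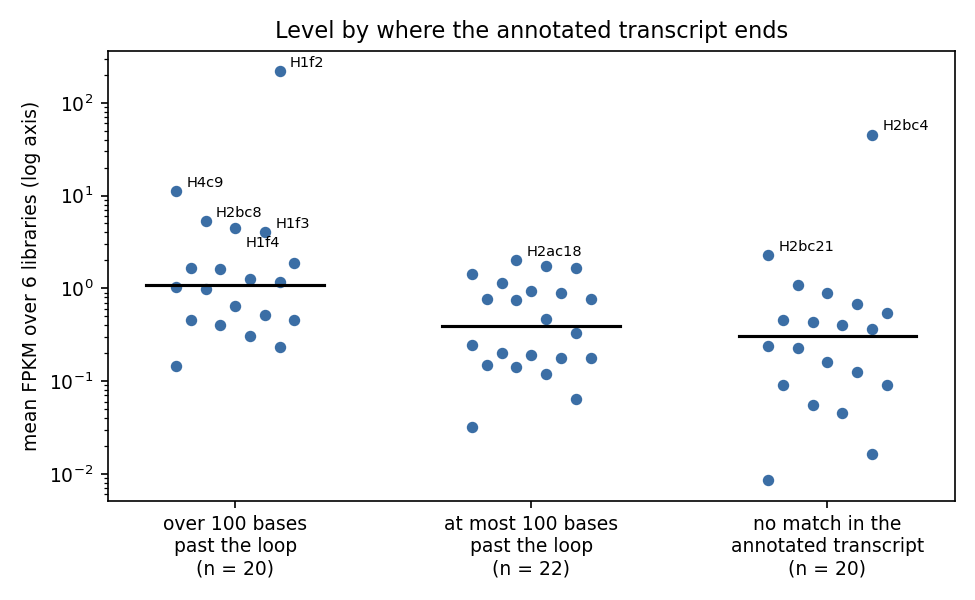
Mean FPKM over 6 libraries (log axis) of the 62 histone genes, 1 point per gene, grouped by how far the annotated transcript runs past the stem-loop, with bars at the medians of 1.09, 0.396 and 0.303 FPKM. Members above 2 FPKM are named, and 5 of these 8 lie in the group with transcripts over 100 bases past the loop.

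The promoters were compared next, as RefSeq windows from 250 bases before to 50 after the start (GRCm38.p6), given for 57 members. The letters CCAAT, on either strand, stood in 48 of these (84.2%) against 37.92% of all 27025 promoters. They stood in 5 of 5 H1, 15 of 15 H2A, 15 of 15 H2B and 10 of 10 H3 promoters, and in 3 of 12 H4 promoters. These windows are not all separate, since many H2A and H2B genes lie in pairs on opposite strands with windows that overlap. Those of H2ac13 (chr13:21716162-21716461) and H2bc13 (chr13:21716134-21716433) are an example. The same letters then count for both genes of a pair. TATAAA, on either strand, stood in 57.9% of the members' windows against 14.16% of all. Its matches were counted at any place in the window, from -250 in H4c6 to 41 in H4c1. It stood in 4 of 5 H1 windows, and not in that of H1f2. The H1 genes are shown because each held CCAAT at nearly the same distance from its start, in capitals here with 12 bases on either side, on the strand of the gene.
H1f1: cgttagcattcaCCAATcacagcacagca
H1f2: gccgctggagcaCCAATcagcgcgcgcct
H1f3: cggcgcagggaaCCAATcaccacgcagct
H1f4: ctggacagcgcaCCAATcacggcgcagct
H1f5: ttggccgctccaCCAATcacagcccagca

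The first base of CCAAT lay at -56 in H1f1 (chr13:23763600-23763628, plus strand), at -54 in H1f2 (chr13:23738741-23738769, plus strand) and at -51 in H1f3 (chr13:23554969-23554997, plus strand). It lay at -52 in H1f4 (chr13:23622594-23622622, minus strand) and at -53 in H1f5 (chr13:21780662-21780690, minus strand). These genes shared the motif and its place but not their level, which ran from 0.452 FPKM in H1f1 to 219 in H1f2. A match of letters is a description and not a binding site.

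The comparison of the labels was meant as one of Npm1, which encodes nucleophosmin, itself a histone chaperone, although Npm1 was not lower in the libraries labelled ko. Across the members, the summed level was 321, 206 and 294 CPM in wt1 to wt3 and 190, 162 and 237 CPM in ko1 to ko3. The means were 274 ± 60.04 CPM and 196 ± 37.9 CPM (SD, n = 3 libraries each), so the libraries labelled ko had 71.7% of the level of those labelled wt, and the groups overlapped. No histone gene passed the test. The quasi-likelihood test of edgeR, with p adjusted by the Benjamini-Hochberg method, gave 0 of 33 members with an adjusted p under 0.05, against 0.0% of all 13884 genes, and 2112 genes had an unadjusted p under 0.05. DESeq2 called 36 genes (0.263%), none of them a member.

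The estimates nevertheless lay mostly on one side. Of the 33 members tested, 27 (81.8%) had a lower estimate in the libraries labelled ko, against 47.9% of all genes, and the median log2 fold change was -0.31 against 0.02. All 8 members above 2 FPKM had a lower estimate. Of the 29 members not tested, 14 had a lower mean CPM in the libraries labelled ko than in those labelled wt. At an unadjusted p under 0.05, 3 members were lower, against 8.31% of all genes, and 0 were higher, against 6.9%. The groups did not overlap in 4 members, each lower in the libraries labelled ko, against 12.6% of all genes with that direction and 13.3% with the other. The counts of 3 and 4 lower members are near the backgrounds of their direction. The 95% interval held 0 for 30 of 33 members, and it reached a median of 1.14 to either side on the log2 scale. Without wt1 the median was -0.27 and the log2 ratio of the sums moved from -0.47 to -0.35.

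**Figure D3:**
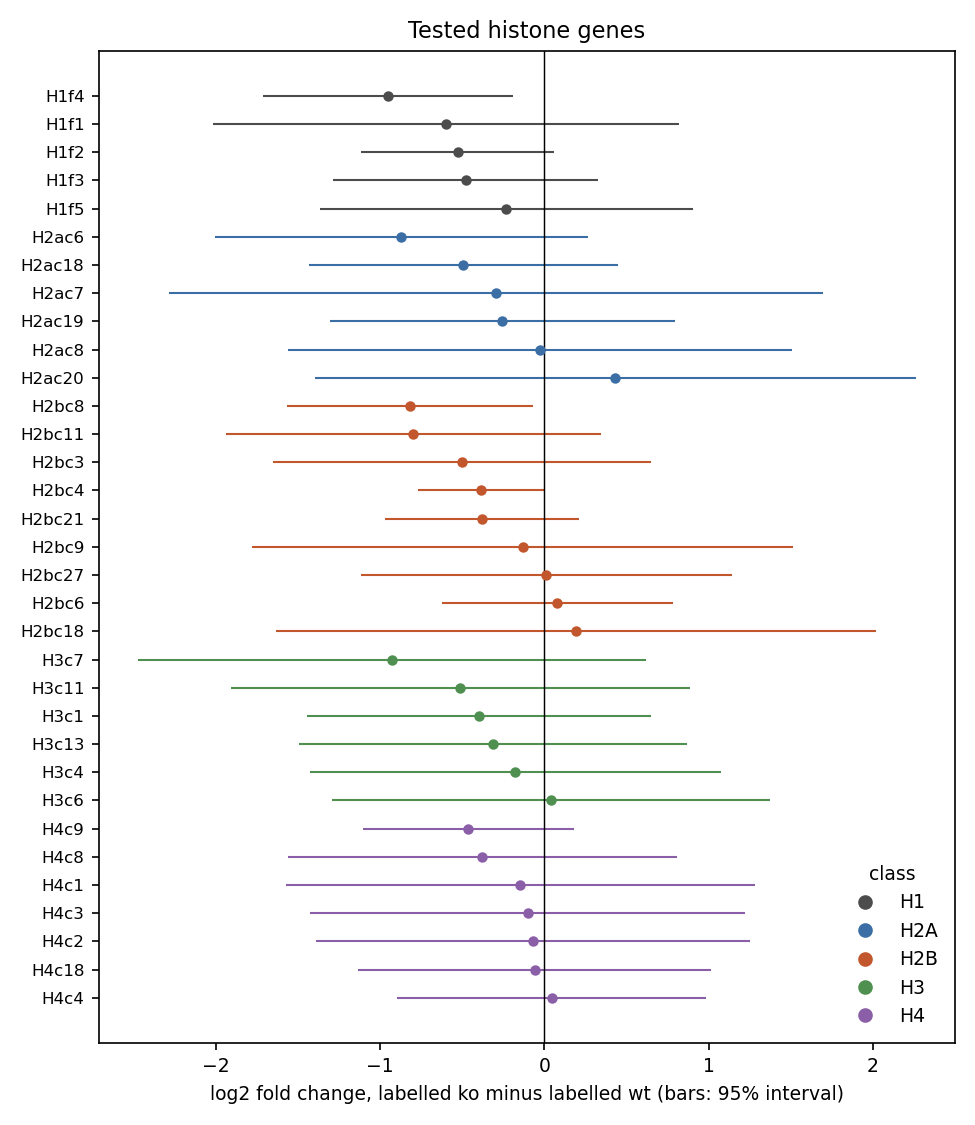
Log2 fold change (labelled ko minus labelled wt) of the 33 tested histone genes with 95% intervals from edgeR, coloured by class. The points of 27 genes lie below 0, and the intervals of H1f4, H2bc8 and H2bc4 alone exclude it.

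Among the linker histones, H1f2 had by far the most counts. H1f2 stood at 231, 138 and 202 CPM in wt1 to wt3 and at 124, 100 and 172 CPM in ko1 to ko3. The highest values were those of wt1 and wt3, and ko3 lay above wt2. The ko mean was 69.4% of the wt mean, and the log2 fold change of -0.53 ± 0.25 (SE) had a 95% interval from -1.11 to 0.060 (edgeR, adjusted p = 0.336). Without wt1 it was -0.36.
H1f4 (chr13:23621777-23622558, minus strand) stood at 5.29, 2.96 and 5.67 CPM in the libraries labelled wt and at 2.14, 2.84 and 2.22 CPM in those labelled ko. The groups did not overlap, although wt2 was close to ko2. On the log2 scale the difference was -0.95 ± 0.33 (SE, edgeR, adjusted p = 0.328), and its ko mean was 51.7% of the wt mean, the lowest of the members tested. Exons of H1f4 in GENCODE overlap those of H2bc6 and Gm11398 on the same strand. The counted length of H1f4, 782 bases, equals the RefSeq gene, and H2bc6 in RefSeq ends short of it at chr13:23621124. The place of Gm11398 against that interval was not examined, so reads there are not certain to be those of H1f4.
H1f3 had 4.27, 2.11 and 4.57 CPM against 2.77, 2.36 and 2.74, with a log2 fold change of -0.48, and wt2 was the lowest library of all. H1f5 had 1.15, 0.592 and 1.07 CPM against 1.07, 0.43 and 0.903, and H1f1 had 0.45, 0.536 and 0.241 CPM against 0.127, 0.43 and 0.246, with log2 fold changes of -0.23 and -0.60. The H1 class thus gave 5 of 5 lower estimates, and its sum in the libraries labelled ko was 69.1% of that in the libraries labelled wt.

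H2B genes gave 6 lower estimates of 9, and the sum of the class was 76.9% of the wt mean. H2bc4 had 41.9, 31.6 and 46.6 CPM in wt1 to wt3 and 31.1, 29.3 and 31.6 in ko1 to ko3. The libraries labelled ko lay within a narrow range that wt2 shared. On the log2 scale the difference was -0.39 ± 0.17 (SE, edgeR, adjusted p = 0.328), and the interval ran from -0.77 to -0.000349.
H2bc8 (chr13:23571400-23571863, plus strand) had 2.53, 2.76 and 4.28 CPM against 1.63, 1.67 and 2.13. Each library labelled ko lay below each labelled wt. The log2 difference was -0.82 ± 0.32 (SE, edgeR, adjusted p = 0.328), and without wt1 it was -0.96. Of its 50-base words, 49.7% occur in the transcript of another gene.
H2bc21 (chr3:96221072-96223738, plus strand) had 8.01, 5.30 and 6.98 CPM against 4.96, 4.44 and 6.18, with a log2 fold change of -0.38 and groups that overlapped. H2bc6 did not follow this order, with 2.28, 2.40 and 2.51 CPM in the libraries labelled wt and 3.08, 1.81 and 2.71 in those labelled ko. Its log2 fold change was 0.08 with an interval from -0.63 to 0.79. H2bc18 was near the counting limit in several libraries, from 0.0509 to 0.309 CPM, and its log2 fold change was 0.19 with a standard error of 0.78.

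H2A genes were low and gave 5 lower estimates of 6. H2ac6 had 0.956, 0.958 and 1.15 CPM against 0.458, 0.907 and 0.301, and its groups did not overlap, although ko2 came close to wt1. The log2 difference was -0.87 ± 0.49 (SE, edgeR, adjusted p = 0.364). Its exons overlap Gm24991 on the same strand and Gm44350 on the other, and whether the counting used strand is not stated.
H2ac18 had 1.55, 1.21 and 1.42 CPM against 0.585, 1.34 and 1.04, and H2ac19 had 1.12, 1.10 and 1.07 against 1.30, 0.453 and 1.01. The log2 fold changes were -0.49 and -0.25, and ko1 was low for one and high for the other of this near-identical pair. H2ac20, with a log2 fold change of 0.43, varied from 0.0564 to 0.59 CPM among the libraries labelled wt alone.

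The class sums of H3 and H4 differed least between the labels. The H3 sum was 91.9% and the H4 sum 83.5% of the wt mean, with 5 lower estimates of 6 and 6 of 7. By gene, H3 did not differ least. The median log2 fold change of tested genes was -0.35 for H3 and -0.10 for H4, beside -0.53 for H1, -0.27 for H2A and -0.38 for H2B. H4c9 had 6.41, 5.10 and 4.22 CPM in wt1 to wt3 and 4.10, 2.98 and 4.35 in ko1 to ko3. The library ko3 lay above wt3, with a log2 difference of -0.46 ± 0.28 (SE, edgeR, adjusted p = 0.384).
The other H4 genes named were near 0 in difference. H4c3 and H4c18 had log2 fold changes of -0.10 and -0.06, which became 0.06 and 0.11 when libraries were scaled by total count alone. H4c4 had 0.675, 0.987 and 0.588 CPM against 0.61, 0.835 and 0.875, with a log2 fold change of 0.05. H3c6, an H3 gene, had 0.703, 0.648 and 0.428 CPM against 0.534, 0.263 and 1.04, with a log2 fold change of 0.04 that rested on ko3 and was -0.58 without it.

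**Figure D4:**
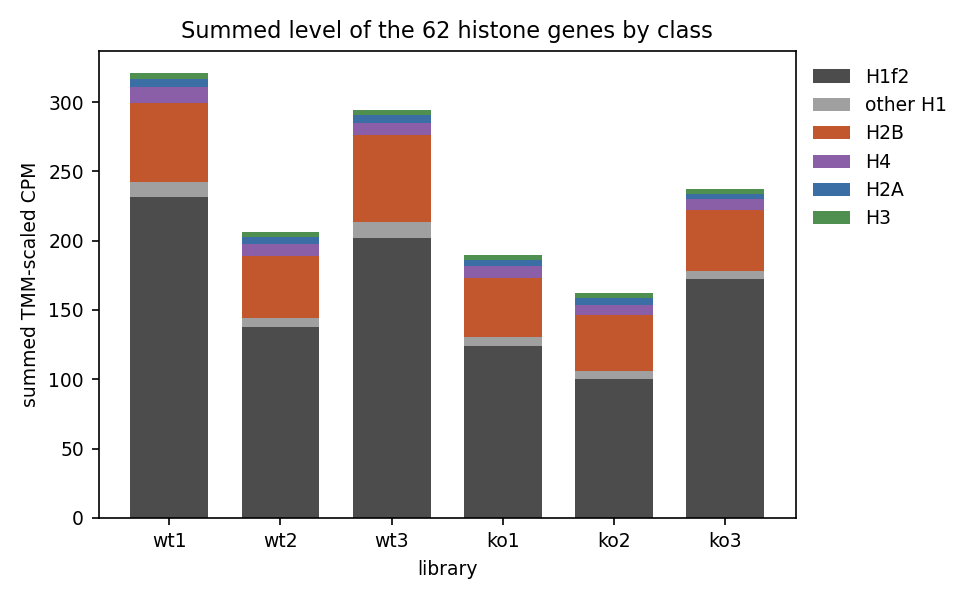
Summed TMM-scaled CPM of the 62 histone genes in each library, stacked by class with H1f2 drawn apart from the other H1 genes. H1f2 fills most of each bar, and the totals run from 162 in ko2 to 321 in wt1 with ko3 at 237 above wt2 at 206.

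H1f2 carried most of the sum and most of its spread. Without it, the other 61 genes summed to 89.8, 68.2 and 92.4 CPM in wt1 to wt3 and to 65.9, 61.9 and 64.9 CPM in ko1 to ko3. These groups did not overlap, although wt2 was close to ko1, and the ko mean was 77.0% of the wt mean. H2bc4 alone held 40.0 of the mean of 83.5 CPM labelled wt and 30.6 of the 64.2 CPM labelled ko. By cluster, the ko mean was 71.3% of the wt mean on chromosome 13 and 79.8% on chromosome 3. By annotated end, it was 69.9% for members with transcripts over 100 bases past the loop, 85.0% for those within 100 bases and 77.4% for those without a match. In the libraries labelled wt, H1f2 held 190 of the 216 CPM of the first sum and H2bc4 40.0 of the 50.4 CPM of the last. Among the tested genes, the median log2 fold change was -0.18, -0.33 and -0.35 in the same order. Lower estimates were 11 of 15, 9 of 10 and 7 of 8. The 29 members not tested had at most 50 counts over all 6 libraries and a mean of at most 0.518 FPKM.

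Genes that work with histones were compared by the same fit, and none passed an adjusted p under 0.05 by edgeR or DESeq2. Of all 13884 genes tested, 47.9% had a lower estimate, and 6.9% were higher and 8.31% lower at an unadjusted p under 0.05. Of 10 replication-independent histone genes, which serve outside S phase, 7 had a lower estimate, with a median log2 fold change of -0.16. H2az2, a variant of H2A, was the only one of them with an unadjusted p under 0.05, at 13.3, 13.2 and 12.8 CPM against 18.7, 19.4 and 15.6 and a log2 fold change of 0.45. H3f3a, which encodes the H3 variant used outside S phase, and H2aj, an H2A variant, had log2 fold changes of -0.31 and -0.27, and their groups overlapped.
Of 28 genes for processing and turnover of histone mRNA, 17 had a higher and 11 a lower estimate, with a median of 0.07. Slbp, the stem-loop binding protein, had 30.6, 40.3 and 39.0 CPM against 38.1, 44.9 and 37.4 (log2 fold change 0.13, 95% interval -0.23 to 0.49), and the groups overlapped. Npat had 6.86, 5.38 and 11.8 CPM against 10.9, 12.98 and 9.35, with a log2 fold change of 0.47 and an interval from -0.27 to 1.20. The groups did not overlap in 3 higher and 2 lower genes of this list, against 13.3% and 12.6% of all genes, so these counts are not above those shares. Pcf11, a 3′ end processing factor, and Ncbp1, of the cap-binding complex, were among the higher, with log2 fold changes of 0.45 and 0.26, and Sympk, a scaffold of the cleavage complex, was among the lower, with -0.26.
Of 33 histone chaperones and import factors, 28 had a higher estimate. At an unadjusted p under 0.05, 7 were higher and 1 lower, against 6.9% and 8.31% of all genes. In this list 13 genes were higher and 1 lower with groups that did not overlap, against 13.3% and 12.6% of all genes. Asf1a, which carries H3 and H4, had 8.69, 9.95 and 8.80 CPM against 15.5, 15.2 and 11.1, and Nap1l1, which carries H2A and H2B, had 150, 208 and 217 CPM against 274, 296 and 243. Their log2 fold changes were 0.61 and 0.50, and that of Hjurp, which carries the centromeric H3 variant, was 0.46. For Npm1 it was 0.51 ± 0.36 (SE, edgeR, adjusted p = 0.436), and its lowest library was wt1.
The 13 polyadenylation genes had a median of -0.01, with 0 past an unadjusted p of 0.05 by edgeR in either direction and log2 fold changes of 0.19 for Fip1l1, -0.18 for Cpsf1 and 0.15 for Nudt21, the smallest p among them.

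The replication genes of S phase, in which histone genes are normally transcribed, lay on the other side. Of 48 genes of S phase and the G1/S transition, 45 had a higher estimate, with a median log2 fold change of 0.62. At an unadjusted p under 0.05, 13 were higher and 1 lower, against 6.9% and 8.31% of all genes. With groups that did not overlap, 15 were higher and 1 lower, against 13.3% and 12.6% of all genes. Dbf4, the activator of the kinase that starts replication, had a log2 fold change of 0.93 and Tyms, which makes thymidylate, one of 0.79. E2f2, a transcription factor of G1/S, had 86.4, 37.3 and 48.9 CPM against 31.1, 23.0 and 35.1, a log2 fold change of -0.95. All 24 mitotic genes tested had a higher estimate, with a median of 0.88, 0 of them past an unadjusted p of 0.05 by edgeR in either direction. In 14 of the 24 the groups did not overlap, each higher in the libraries labelled ko, against 13.3% of all genes. Bub1, of the spindle checkpoint, Birc5 and Ccnb2 had log2 fold changes of 1.13, 1.02 and 0.78.
By library, the S phase list summed to 679, 1045 and 952 CPM in wt1 to wt3 and to 1303, 1512 and 1037 in ko1 to ko3. The mitotic list summed to 124, 539 and 466 CPM in wt1 to wt3 and to 704, 809 and 554 in ko1 to ko3. From the highest histone sum to the lowest the libraries ran wt1, wt3, ko3, wt2, ko1, ko2. From the lowest S phase sum to the highest they ran wt1, wt3, ko3, wt2, ko1, ko2, which is the same order. From the lowest mitotic sum to the highest they ran wt1, wt3, wt2, ko3, ko1, ko2, which is the same order but for an exchange of wt2 and ko3. The order was not particular to genes of the cell cycle. Fibroblast markers, given below, ran wt1, wt3, ko3, wt2, ko2, ko1 from the lowest sum to the highest. H1f2 alone gives the same histone order. Without H1f2, the sums of the other 61 genes ran wt3, wt1, wt2, ko1, ko3, ko2 from the highest to the lowest. The same 6 libraries give all these orders, and no test was made of them.

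Markers of cell types were compared in the same way, and 0 passed an adjusted p under 0.05 by edgeR or DESeq2. Among all genes tested, 8.31% were lower and 6.9% higher at an unadjusted p under 0.05, and 47.9% had a lower estimate. Of 15 macrophage markers, 15 had a lower estimate and 7 of them an unadjusted p under 0.05, and their sums were 27458, 25599 and 22158 CPM in wt1 to wt3 and 17608, 13326 and 22599 in ko1 to ko3. The library ko3 lay above wt3, and the ko mean was 71.2% of the wt mean, beside 71.7% for the histone genes and 77.0% for these without H1f2. The median log2 fold change was -0.51 for the macrophage markers and -0.31 for the histone genes tested. Of 9 neutrophil markers tested, 9 had a lower estimate and 4 an unadjusted p under 0.05, with sums of 1890 to 2109 CPM against 838 to 1610. By gene, the groups did not overlap in 8 macrophage and 5 neutrophil markers, each lower, against 12.6% of all genes. In each other marker list this held for at most 1 gene in either direction.
Fibroblast markers were lowest in wt1, at 50.5 CPM, with 562 and 339.7 in wt2 and wt3 and 798, 681 and 418 in ko1 to ko3, and 11 of the 13 tested had a higher estimate, 3 of them with an unadjusted p under 0.05, although wt2 lay above ko3. Epithelial or carcinoma markers summed to between 36.3 and 138 CPM against 129 to 192, with 1 to 3 of 9 markers at 0 in a library. T and NK cell markers summed to between 61.6 and 159 CPM against 129.5 to 370.1, with 12 of 12 higher estimates, 4 of them with an unadjusted p under 0.05, and sums that overlapped, and endothelial markers to between 32.7 and 40.1 against 30.1 to 34.0. B cell markers summed to between 6.43 and 37.5 CPM against 12.4 to 61.5. The part of the cell mixture in the histone values was not tested.

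**Figure D5:**
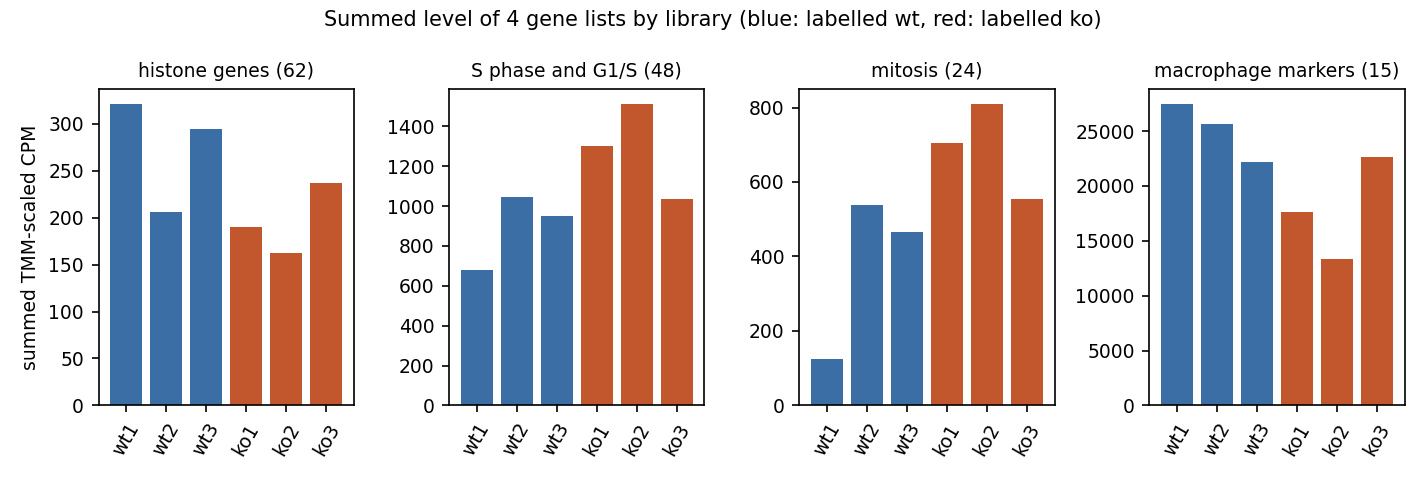
Summed TMM-scaled CPM by library for the 62 histone genes, 48 genes of S phase and G1/S, 24 mitotic genes and 15 macrophage markers, each panel on its own axis from 0, with libraries labelled wt in blue and labelled ko in red. The library wt1 has the highest histone sum (321) and the lowest S phase (679) and mitotic (124) sums. The library ko2 has the lowest histone sum (162) and the highest S phase (1512) and mitotic (809) sums. Without H1f2, which is not drawn apart here, wt3 has the highest histone sum (92.4) and ko2 the lowest (61.9).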

How the data were processed

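RNA from 6 libraries was analysed. The authors deposited whole-number read counts per gene, without normalization, and FPKM values, which follow from the counts, 1 fixed length per gene and each library's total. The submitters' processing notes name the build mm10, and the aligner, counting tool, annotation and strand setting are not given in the sources used here. The histone members and all gene lists were chosen with earlier results of these data known. Counts were filtered with filterByExpr, scaled by TMM and compared with edgeR 4.0.16 (glmQLFit, glmQLFTest) in R 4.3.3, with Benjamini-Hochberg adjustment over 13884 genes and a threshold of 0.05. CPM are TMM-scaled. Standard errors (SE) come from the log2 fold change and the F statistic. The genes named were the 12 members with the highest mean FPKM, the 5 with the smallest p in each direction and the H1 genes, and in the other lists the 3 smallest p with Slbp, Npat and Npm1. The fit was run on simulated counts with low spread and large changes in genes with many counts. This setting was easier than the data and does not show what the fit could detect among the members. Alternatives used DESeq2 1.42.0, and limma 3.58.1 on log2 of the FPKM values plus 1 or 0.1. Genes were matched to RefSeq and GENCODE by NCBI Gene number (62 of 62). With 3 libraries against 3 an exact permutation test cannot go below 0.1.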

Additional observations from a re-analysis of the deposited data

How the results depend on the processing

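Over 16 alternatives, 0 histone genes had an adjusted p under 0.05, and among the members named the smallest was 0.139, for H2bc8. DESeq2 called 36 genes in all. The number of histone genes at an unadjusted p under 0.05 was 3, and it was 5, with 1 of them higher, without a filter on low counts, 0 with total count scaling, and 0 to 5 when 1 library was left out (0 without ko1 or wt3, 5 without wt2). The median log2 fold change of the tested members stayed between -0.43 and -0.12, and the log2 ratio of the sums between -0.67 and -0.32. Total count scaling moved the median of all genes by 0.15 and limma on log2 FPKM plus 0.1 moved it by 0.14. The cause of these moves was not tested.

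The replicate numbers did not pair the libraries, since the correlations of deviations were -0.241, 0.0605 and -0.337. With that number entered as a replicate block, 1 histone gene had an unadjusted p under 0.05, and H4c3 (0.029) and H3c6 (-0.13) changed sign.

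Of the 19 members named, 10 kept their direction in every alternative run, among them H1f2 (-0.77 to -0.36), H1f4 (-1.20 to -0.62), H2bc4 (-0.54 to -0.21), H2bc8 (-1.10 to -0.54) and H4c9 (-0.61 to -0.28). H4c3 changed sign with limma on log2 FPKM plus 0.1 (0.22) and plus 1 (0.091) and with total count scaling (0.057), and H4c18 with the same fits (0.11, 0.069 and 0.11). Where 1 library, or wt1 and ko3 together, was left out, the values ran from -0.51 to 0.22 for H4c3, -0.34 to 0.37 for H4c18, -0.12 to 0.29 for H4c4, -0.58 to 0.40 for H3c6, -0.13 to 0.76 for H2bc18, -0.086 to 0.26 for H2bc6, -0.59 to 0.065 for H2ac19, -0.50 to 0.063 for H1f5 and -0.074 to 1.32 for H2ac20. With 3 libraries a group and a median interval of 1.14 to either side, smaller differences of most members could not be resolved.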
